A study of Mus musculus with 6 samples.

Results

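The genes described here belong to death receptor signaling, the route by which a ligand on one cell triggers death in another. They are Fasl, Fas, Fadd, Cflar, Tnfsf10, Tnfrsf10b, Ripk1 and Ripk3, 8 genes taken by symbol. Of these, 7 were measured, out of 19938 genes on the arrays that had a probe set annotated with exactly 1 symbol, and Ripk1 was not analysed here.

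Fas ligand and TRAIL are members of the TNF family. Each binds a receptor whose intracellular death domain recruits the adaptor FADD and caspase-8, and the resulting complex can start apoptosis. The CFLAR protein, or cFLIP, competes with caspase-8 in that complex. RIPK1 and RIPK3 are kinases that can divert the signal to necroptosis, a lytic form of death that MLKL carries out. Activated cytotoxic T cells and NK cells use Fas ligand to kill target cells, and Fas on T cells limits their own accumulation.

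RNA was measured on 6 Affymetrix arrays, 3 from sanroque mice (Roquinsan/san) and 3 from wild-type mice (Roquin+/+), all 10 weeks old and on a C57BL/6 background. Each array held CD8+ T cells with low surface CD44 that had been sorted from spleen and lymph nodes. The sanroque allele is a homozygous point mutation of Roquin, an RNA-binding repressor encoded by Rc3h1, and it is a germline change, so the cells around the sorted ones carried it as well. The labels call the samples biological replicates and do not say whether animals were pooled. CD44 is an adhesion receptor that rises on activated T cells, so a CD44-low gate selects mostly cells with a naive surface.

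Values are log2 of the deposited intensity unless stated otherwise. Calling a gene took an adjusted p below 0.05 in limma's moderated test, with the Benjamini-Hochberg adjustment made across the 19938 genes. The number of arrays limits the precision. Across all genes 1151 were called, 650 higher and 501 lower in sanroque, and the median log2 fold was -0.03. Cd8a, a chain of the CD8 coreceptor, averaged 13.00 ± 0.02 in sanroque and 13.02 ± 0.03 in wild type (SD, n = 3 each). Cd44, the gene of the sort marker, was 2.63-fold higher in sanroque (limma, Benjamini-Hochberg adjusted p = 0.00669). The Rc3h1 level had a log2 fold of 0.14 ± 0.10 (limma, adjusted p = 0.564), and a point mutation cannot be checked from it.

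Among the death receptor genes, Fasl was the 1 of 7 that was called, and it was higher in sanroque cells by 5.38-fold. The other 6 were not called in either direction. Calls of a higher level made up 3.26% of all genes, calls of a lower level 2.51% and calls in either direction 5.77%. The groups did not overlap for Fasl, with sanroque above, and for none of the other 6, where 22.7% of all genes had groups that did not overlap. The 7 genes had a median log2 fold of -0.11, against -0.03 for all genes.

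The ligands come first. Fasl encodes Fas ligand, the membrane protein with which cytotoxic lymphocytes engage Fas. Its intensity was 103, 311 and 110 in sanroque replicates 1 to 3, against 27.0, 30.5 and 27.5 in wild type replicates 1 to 3. Each sanroque array read above each wild-type array, and the lowest sanroque reading was 3.38 times the highest wild-type reading. Sanroque replicate 2 stood well above the other two. The wild-type readings lay under the median intensity of their arrays, which was between 53.6 and 56.0. On the log2 scale Fasl averaged 7.25 ± 0.89 in sanroque and 4.82 ± 0.10 in wild type (SD, n = 3 each). The log2 fold was 2.43 ± 0.39 with a 95% interval of 1.51 to 3.35 (limma, Benjamini-Hochberg adjusted p = 0.0187), which is 2.85-fold to 10.2-fold. Without sanroque replicate 2 the log2 fold was 1.91 (limma, adjusted p = 0.00161). The call was lost without sanroque replicate 1 and wild type replicate 2 together (log2 fold 2.76, limma adjusted p = 0.0713). It was also lost without wild type replicate 1 (log2 fold 2.39, limma adjusted p = 0.0943), replicate 2 (2.48, 0.0598) or replicate 3 (2.41, 0.0522), and with 16 added to each intensity before the log (1.94, 0.0516).

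Tnfsf10 encodes TRAIL, the ligand of the mouse death receptor made from Tnfrsf10b. It read 7.82, 8.13 and 8.64 in sanroque replicates 1 to 3, against 7.90, 7.67 and 7.43 in wild type replicates 1 to 3. The groups overlapped, because sanroque replicate 1 read below wild type replicate 1. The means were 8.20 ± 0.41 in sanroque and 7.66 ± 0.24 in wild type (SD, n = 3 each), a log2 fold of 0.53 ± 0.21 that was not called (limma, Benjamini-Hochberg adjusted p = 0.223). The 95% interval of that fold, not adjusted for the number of genes, was 1.03-fold to 2.04-fold. Without sanroque replicate 3 the log2 fold of Tnfsf10 was 0.31.

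The promoters of both ligand genes are shown because Fasl is the gene with the call and Tnfsf10 had the next most positive fold. Sequences are RefSeq's on GRCm38.p6, the 250 bases before the annotated start, read 5′ to 3′ on the gene's own strand. Fasl is on the minus strand at chr1:161788496-161788745 and Tnfsf10 on the plus strand at chr3:27316827-27317076. Capitals mark matches on either strand to GGAAA, the core bound by NFAT factors.
Fasl: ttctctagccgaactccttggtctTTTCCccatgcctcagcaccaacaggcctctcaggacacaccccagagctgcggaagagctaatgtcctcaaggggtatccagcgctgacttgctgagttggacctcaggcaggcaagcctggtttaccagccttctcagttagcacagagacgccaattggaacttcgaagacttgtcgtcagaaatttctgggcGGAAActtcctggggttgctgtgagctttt
Tnfsf10: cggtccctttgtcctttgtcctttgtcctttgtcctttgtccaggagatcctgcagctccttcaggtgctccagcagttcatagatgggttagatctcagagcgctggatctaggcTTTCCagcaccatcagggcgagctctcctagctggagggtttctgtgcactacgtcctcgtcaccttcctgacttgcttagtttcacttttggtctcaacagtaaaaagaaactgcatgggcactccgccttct

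NFAT factors act downstream of the T cell receptor. The core was matched 2 times before Fasl, with matches beginning 226 and 30 bases before the start, and 1 time before Tnfsf10, at 134 bases. Of the 32841 mouse promoters, 55.6% hold it in a window of this length, so a match is common. Of the 7 measured genes 6 had a promoter sequence, and Cflar was the 1 of these 6 without the core. The interferon-stimulated core (GAAA, any 2 bases, GAAA), found in 2.98% of promoters, was in 0 of the 6 windows. It can share bases with GGAAA. The T-box core AGGTGT, found in 11.8% of promoters, was in the Ripk3 window alone. Tnfrsf10b had no entry.

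The receptors were not called. Fas encodes the receptor of Fas ligand, whose loss in mice leads to accumulation of lymphocytes. It read 8.45, 8.73 and 8.81 in sanroque replicates 1 to 3, against 8.75, 8.83 and 8.79 in wild type replicates 1 to 3. Sanroque replicate 1 was the lowest of the 6, and the other 2 sanroque arrays lay among or just beside the wild-type readings. The log2 fold was -0.13 ± 0.10 (limma, Benjamini-Hochberg adjusted p = 0.645), with a 95% interval of 0.776-fold to 1.08-fold. The folds of Fasl and Fas were not tested against each other. Tnfrsf10b, the mouse TRAIL receptor gene, read 6.13, 6.72 and 6.90 in sanroque replicates 1 to 3, against 7.02, 6.95 and 6.56 in wild type replicates 1 to 3. Its groups overlapped as well, with sanroque replicate 1 lowest. The log2 fold was -0.26 ± 0.21 (limma, Benjamini-Hochberg adjusted p = 0.647) and the interval 0.592-fold to 1.18-fold.

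The components inside the cell were not called either. Fadd encodes the adaptor that links Fas to caspase-8. It read 6.67, 6.61 and 6.74 in sanroque replicates 1 to 3, against 6.61, 6.91 and 6.84 in wild type replicates 1 to 3, and the groups overlapped (log2 fold -0.11 ± 0.09, limma, adjusted p = 0.668). Cflar, the inhibitor of caspase-8 recruitment, read 9.26, 9.45 and 9.80 in sanroque replicates 1 to 3, against 9.69, 9.75 and 9.33 in wild type replicates 1 to 3. Both groups spanned nearly the same range (log2 fold -0.08 ± 0.16, limma, adjusted p = 0.896). Cflar had 2 further probe sets, with log2 folds of -0.11 and 0.03, so its probe sets did not share a sign. Ripk3, the kinase that activates MLKL, read 8.39, 8.59 and 8.95 in sanroque replicates 1 to 3, against 8.84, 8.88 and 8.64 in wild type replicates 1 to 3. Its groups overlapped too (log2 fold -0.14 ± 0.15, limma, adjusted p = 0.750). The 95% intervals were 0.795-fold to 1.08-fold for Fadd, 0.722-fold to 1.23-fold for Cflar and 0.715-fold to 1.15-fold for Ripk3.

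**Figure D1:**
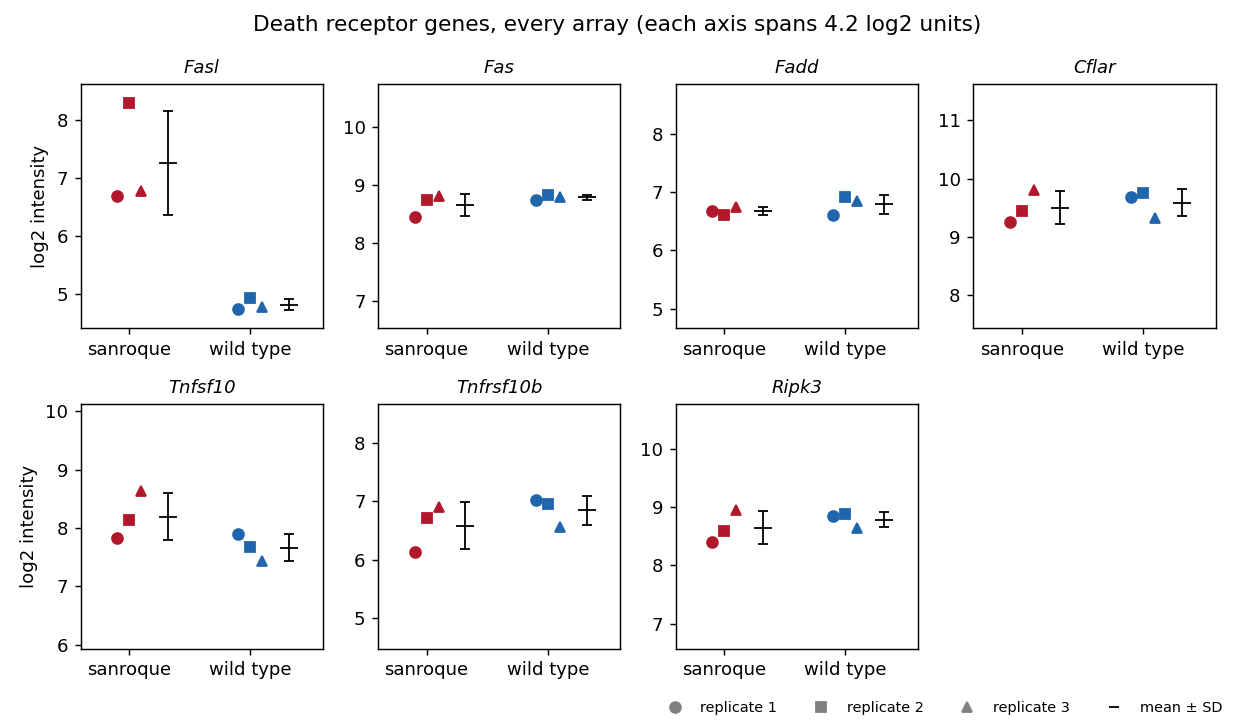
Log2 intensity of the 7 measured genes on each array, with sanroque left (red) and wild type right (blue), the replicate given by the symbol, and the mean ± SD beside each group of 3. Every axis spans the same number of log2 units but starts at its own level, so heights compare arrays within a gene and not genes. Fasl is the panel in which the groups do not overlap.

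Within the sanroque group the arrays kept a similar order across these genes. Sanroque replicate 1 was the lowest of its group for 6 of the 7 genes, Fadd being the exception, where replicate 2 was lowest. Over all genes sanroque replicate 1 was lowest for 32.4%. Sanroque replicate 3 was the highest for 6 of the 7, against 33.7% of all genes, and the exception was Fasl, highest in replicate 2. In the wild-type group replicate 3 was highest for 0 of the 7 genes, though it was highest for 49.7% of all genes. These shares are descriptions, since the 7 genes share the same arrays.

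The genes with the pattern nearest to Fasl over the 6 arrays were Ctla4, Lilrb4a and Osbpl3. Likeness was the root mean square difference between log2 values after each gene was centred on its own mean, taken over 18701 genes with established symbols. It was 0.26 for Ctla4, which encodes an inhibitory receptor of T cells. It was 0.27 for Lilrb4a, an inhibitory immunoglobulin-like receptor gene known from myeloid cells and activated lymphocytes. It was 0.28 for Osbpl3, a gene of the oxysterol-binding protein family. Each of them was highest in sanroque replicate 2, as Fasl was. Ctla4 read 6.87, 8.46 and 7.57 in sanroque replicates 1 to 3, against 5.56, 5.57 and 5.38 in wild type replicates 1 to 3. Lilrb4a read 7.63, 8.77 and 7.77 in sanroque, against 5.01, 5.56 and 5.17 in wild type. Osbpl3 read 7.62, 8.87 and 8.03 in sanroque, against 5.57, 5.28 and 5.54 in wild type. Their log2 folds were 2.13, 2.81 and 2.71, each called (limma, Benjamini-Hochberg adjusted p = 0.0197, 0.00471 and 0.00472). Ctla4, like Fasl, lost its call without wild type replicate 1, 2 or 3 (log2 folds 2.16, 2.16 and 2.07, limma adjusted p = 0.0927, 0.0644 and 0.0559). These arrays are the ones that gave the Fasl call, and the likeness was not tested.

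**Figure D2:**
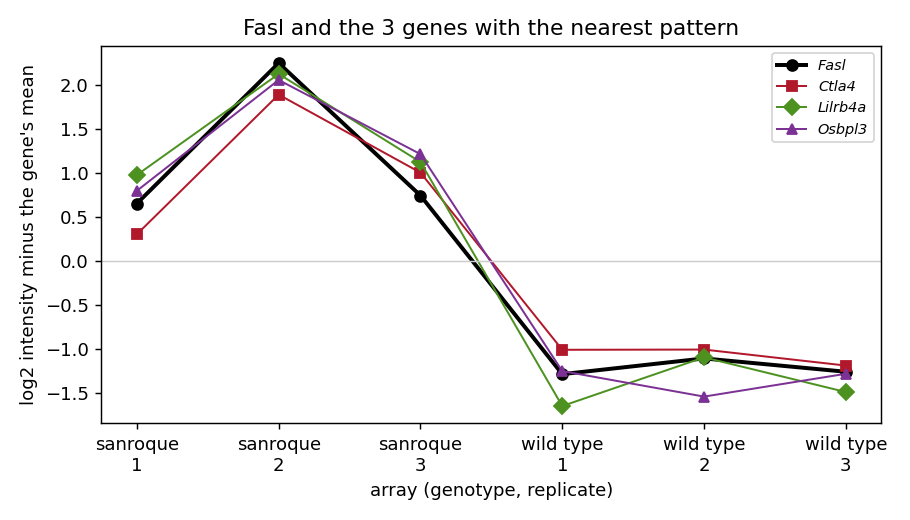
Log2 intensity minus each gene's own mean on the 6 arrays, sanroque replicates 1 to 3 left and wild type replicates 1 to 3 right, for Fasl (thick black line) and the 3 genes with the nearest pattern. All 4 lines peak in sanroque replicate 2 and lie below 0 in the wild-type arrays.

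Beyond these genes, 60 other genes of the pathway were listed by role and 56 were measured. Of these, 3 rose, 2 fell and 51 were not called, so 8.93% were called against 5.77% of all genes, and the median log2 fold was 0.01 against -0.03. The groups did not overlap for 11 with sanroque above (19.6%, against 9.46% of all genes) and for 7 with sanroque below (12.5%, against 13.2%). The genes that rose were Tnfrsf1b, Zbp1 and Mlkl, and those that fell were Casp6 and Faim. Leaving out sanroque replicate 2 or wild type replicate 1 reduced the count of 5 to 2, and leaving out sanroque replicate 1 or wild type replicate 2 gave a count of 3. Of these 3, 2 were among the 5. Without sanroque replicate 1 and wild type replicate 2 together the count was 1, and it was Fcmr, so 0 of the 5 kept their call. Array weights gave 26, which held all 5.

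Among 9 further receptors and decoys, Tnfrsf1b was the 1 called. It encodes TNF receptor 2, which lacks a death domain. It read 9.37, 9.79 and 9.44 in sanroque replicates 1 to 3, against 8.76, 8.51 and 8.48 in wild type replicates 1 to 3, with no overlap. The fold was 1.94 and its interval 1.57-fold to 2.39-fold (limma, Benjamini-Hochberg adjusted p = 0.0114), and leaving out any single array kept the adjusted p between 0.0189 and 0.0435. Without sanroque replicate 1 and wild type replicate 2 together the Tnfrsf1b call was lost (limma adjusted p = 0.0607). The groups did not overlap for 2 of the 9, with sanroque above (22.2%, against 9.46% of all genes). The second was Tnfrsf21, which was not called (log2 fold 0.48, limma adjusted p = 0.0870). Tnfrsf21 was called without wild type replicate 3 and with array weights. Of 5 other ligands 0 were called, with Tnfsf14 (log2 fold 0.38, limma, adjusted p = 0.0683) and Ltb (-0.33, 0.109) having the smallest p. Ltb was called without sanroque replicate 3 (limma adjusted p = 0.0253), and both were called with array weights. Tnf, the ligand of TNF receptors 1 and 2, had a log2 fold of -0.03.

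Of 10 adaptors 0 were called, and Tradd (log2 fold -0.44, limma, adjusted p = 0.192) and Dedd (-0.26, 0.241) had the smallest p. Tradd, the adaptor of TNF receptor 1, was called without sanroque replicate 3 (log2 fold -0.63, limma adjusted p = 0.0232). With array weights Tradd and Dedd were called (limma adjusted p = 0.00446 and 0.0324). Among 7 genes of caspases, Bid and the mitochondrial route, Casp6 fell. Casp6 encodes an executioner caspase. It read 7.92, 7.95 and 8.31 in sanroque replicates 1 to 3, against 8.92, 8.65 and 8.57 in wild type replicates 1 to 3, 1.57-fold lower with no overlap (limma, Benjamini-Hochberg adjusted p = 0.0399). Casp6 passed when sanroque replicate 3 was left out (limma adjusted p = 0.0193) but not when any of the other arrays was, where the adjusted p was as high as 0.147. The Casp6 call was also lost with 16 added to each intensity (limma adjusted p = 0.0590). Casp8, the initiator caspase of the Fas complex, had a log2 fold of -0.03 ± 0.08 (limma, adjusted p = 0.913), with readings of 10.73, 10.70 and 10.84 in sanroque against 10.73, 10.90 and 10.74 in wild type. Of the 7, the groups did not overlap for 1 with sanroque above, Apaf1 (14.3%, against 9.46% of all genes). With sanroque below they did not overlap for 2, Casp6 and Diablo (28.6%, against 13.2% of all genes). Apaf1 and Diablo were not called (log2 folds 0.61 and -0.45, limma adjusted p = 0.0914 and 0.167). Apaf1 was called with both dim-gene filters and without sanroque replicate 1. Both genes were called with array weights.

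Among 9 inhibitors, Faim fell. Its product, Fas apoptotic inhibitory molecule, was described as a protector of B cells from Fas killing. It read 7.71, 7.69 and 7.61 in sanroque replicates 1 to 3, against 8.17, 8.23 and 7.96 in wild type replicates 1 to 3, 1.37-fold lower with no overlap (limma, Benjamini-Hochberg adjusted p = 0.0325). Faim passed when wild type replicate 3 was left out (limma adjusted p = 0.0240) but not when any of the other arrays was, where the adjusted p was as high as 0.147. Fcmr, an IgM receptor gene of B cells once named as a Fas inhibitor, read 9.03, 8.62 and 8.84 in sanroque, against 7.39, 8.42 and 7.21 in wild type. Wild type replicate 2 lay close to the sanroque arrays for Fcmr, whose log2 fold of 1.16 ± 0.30 was not called (limma, adjusted p = 0.0735). Fcmr was called when wild type replicate 2 was left out, and dropping both that array and sanroque replicate 1 gave a log2 fold of 1.43 (limma adjusted p = 0.0113). With no array left out, Fcmr was also called under both dim-gene filters, the intensity trend and array weights. Xiap and Birc3, which encode inhibitor of apoptosis proteins, had log2 folds of 0.40 and 0.24 without overlap between the groups and were not called (limma, adjusted p = 0.143 and 0.0957). With array weights Xiap and Birc3 were called.

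Of 11 genes that control RIPK1 through ubiquitin chains and their readers 0 were called. Tab2, an adaptor of the TAK1 kinase, had a log2 fold of 0.23 (limma, adjusted p = 0.0864) and Sharpin, a subunit of the linear ubiquitin ligase, of -0.29 (0.0887). Tab2 was called with 16 added to each intensity (limma adjusted p = 0.0415) and Sharpin with quantile normalization (0.0423). Both were called with array weights. Tnfaip3, the gene of the deubiquitinase A20, averaged 9.37 ± 0.50 in sanroque and 8.77 ± 0.15 in wild type (SD, n = 3 each) and was highest in sanroque replicate 2, at 9.94 (log2 fold 0.60 ± 0.23, limma, adjusted p = 0.212). With array weights Tnfaip3 was called as well.

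Of 5 necroptosis genes, Zbp1 and Mlkl rose. Zbp1 encodes an interferon-induced nucleic acid sensor that engages RIPK3. It read 10.18, 10.38 and 10.24 in sanroque replicates 1 to 3, against 9.68, 9.51 and 9.52 in wild type replicates 1 to 3, with no overlap. The fold was 1.62 with an interval of 1.42-fold to 1.86-fold (limma, Benjamini-Hochberg adjusted p = 0.00658), and leaving out any single array kept the adjusted p between 0.0154 and 0.0280. Without sanroque replicate 1 and wild type replicate 2 together the Zbp1 call was lost (limma adjusted p = 0.0509). Mlkl, the effector of necroptosis, read 5.13, 5.43 and 4.87 in sanroque replicates 1 to 3, against 4.50, 4.52 and 4.61 in wild type replicates 1 to 3. These are low readings on this scale. Its fold was 1.52 (limma, Benjamini-Hochberg adjusted p = 0.0492). Mlkl passed when sanroque replicate 3 was left out (limma adjusted p = 0.0188) but not when any of the other arrays was, where the adjusted p was as high as 0.183. The Mlkl call was also lost with the robust variance model (limma adjusted p = 0.0536) and with 16 added to each intensity (0.0882).

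**Figure D3:**
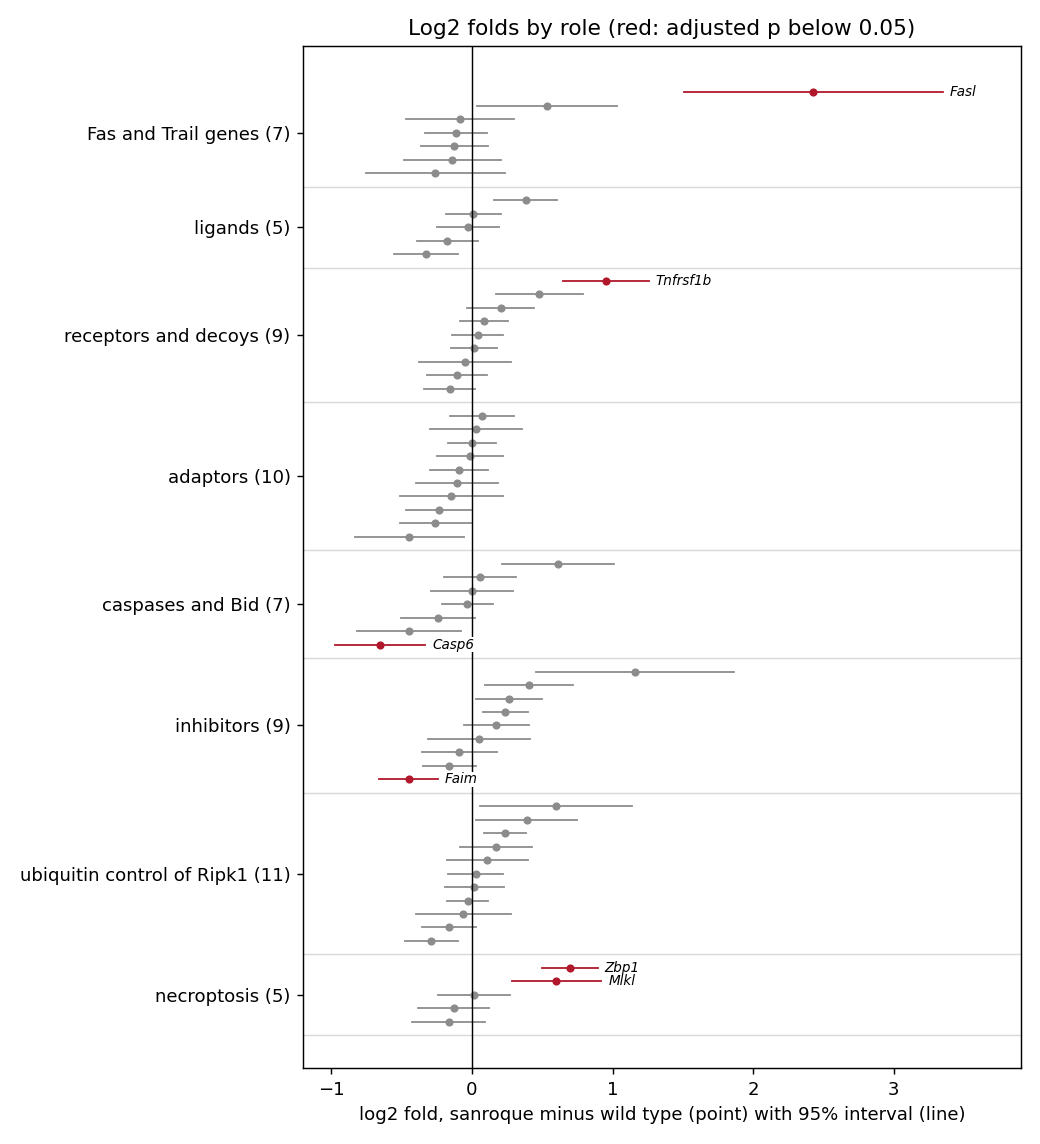
Log2 folds (sanroque minus wild type, points) with 95% intervals (lines) for the 7 measured genes (top block, labelled Fas and Trail genes) and the 56 other pathway genes by role, ordered by fold within a role, with called genes in red and named. Fasl, at 2.43, lies to the right of every other point, and most intervals cross 0.

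**Figure D4:**
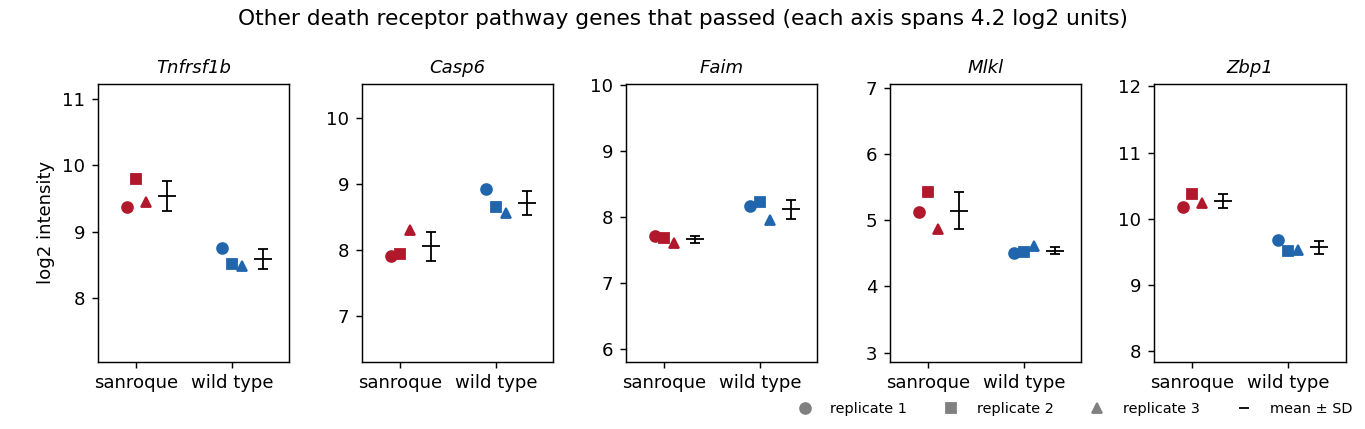
Log2 intensity on each array of the 5 other pathway genes that were called, with sanroque left (red) and wild type right (blue), symbols for replicates, and the mean ± SD beside each group of 3. The groups do not overlap in any of the 5 panels, with sanroque above for Tnfrsf1b, Mlkl and Zbp1 and below for Casp6 and Faim.

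Markers of other cell types moved with genotype on the same arrays. In bulk samples, more cells of a type and more RNA per cell cannot be told apart. Over all genes 3.26% were called higher, the share to set beside each count of genes that rose here. Of 12 B cell genes 7 rose, with a summed intensity of 8447 to 10427 in sanroque against 2215 to 5580 in wild type, where replicate 2 was the highest. H2-Ab1 and Cd74, the brightest of them, had log2 folds of 1.79 and 2.08. The other called B cell genes were Ms4a1, Ebf1, Cd22, Blk and Pax5 (2.24, 1.84, 1.81, 1.27 and 1.21). Of 14 monocyte, macrophage and neutrophil genes 13 rose, with sums of 7816 to 12400 against 867 to 1586, and Lyz2 and Lcn2 had log2 folds of 3.12 and 4.06. Of 6 plasma cell genes 5 rose (sums of 1699 to 2322 against 544 to 848), Jchain by 3.28 and Xbp1 by 0.75 on the log2 scale. Of 6 CD4 T cell genes 3 rose (723 to 1082 against 393 to 439), which were Ctla4, Ikzf2 (1.07) and Zbtb7b (0.80). All 6 had groups that did not overlap, with sanroque above (100%, against 9.46% of all genes). Cd4 itself had a log2 fold of 0.95 without a call (limma, adjusted p = 0.0783). Of 7 NK cell genes 2 rose (291 to 338 against 209 to 232), which were Fcgr3 (0.89) and Klre1 (0.83), while Adamts14 had a log2 fold of 0.23. The groups did not overlap for 3 of the 7, with sanroque above (42.9%, against 9.46% of all genes). The third was Klrb1c, which encodes the NK1.1 antigen. Klrb1c read 5.74, 6.14 and 4.90 in sanroque replicates 1 to 3, against 4.52, 4.88 and 4.56 in wild type replicates 1 to 3, and had the most positive log2 fold of the list, 0.94, without a call (limma, adjusted p = 0.120). Ncr1, another NK receptor gene, read 4.30, 4.15 and 4.61 in sanroque replicates 1 to 3, against 4.13, 4.84 and 4.46 in wild type replicates 1 to 3. Its groups overlapped. The Fc receptor genes Fcer1g and Fcgr1 of the monocyte, macrophage and neutrophil list also rose, with log2 folds of 2.16 and 0.80. Fcgr3 encodes an Fc receptor too, and which cells gave its reading was not tested. Of 9 dendritic cell genes Itgax rose, by 1.96 on the log2 scale (limma, adjusted p = 0.0172), and the sums overlapped, at 2668 to 3165 against 2741 to 3168. Cst3 and Ccr9, the brightest of the 9, weigh most in the sums. They were not called and had opposite signs (log2 folds 0.36 and -0.64). The median log2 levels of the 9 genes did not overlap. These were 5.92, 6.04 and 5.74 in sanroque replicates 1 to 3, against 5.24, 5.61 and 5.64 in wild type replicates 1 to 3. Of 8 CD8 T cell genes 0 rose and Cd3d fell by 0.52, with Cd3g at -0.14. All 8 had negative log2 folds, and their sums were 37918 to 39726 in sanroque against 41844 to 43156 in wild type. The groups did not overlap for 4 of the 8 (50%), with sanroque below, against 13.2% of all genes. No gene reads 0 on this scale. The part of these cells in the Fasl, Tnfrsf1b, Zbp1 and Mlkl values was not tested.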

How the data were processed

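Per the labels' protocols, total RNA was turned into biotinylated cRNA and hybridised. The deposited table gives a linear intensity for each probe set on each array. The submitters' processing notes name Partek without saying for which step. How background was corrected, probes summarized and arrays normalized is not given in the sources used here, and the linear scale was read from the values. Array medians lay between 53.6 and 56.9, so log2 values were used without further normalization.

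Of 35399 probe sets, 21789 had exactly 1 symbol in the platform annotation, 1621 several, and the annotation held no entry for 11989. Current symbols came from the GRCm38.p6 gene table. Each of 19938 genes was represented by its brightest probe set, by mean log2 across the arrays. Genes were compared with limma 3.58.1 (R 4.3.3), two-sided, and ± after a fold is its standard error. The fit was also run on 5 simulated data sets with 200 changed genes each. Their outcome is not reported here, and no result rests on them. The genes and lists were chosen with earlier results of these data known. Named were the listed genes, called pathway genes or the 2 with the smallest p in a role, the 2 brightest markers of each cell type, Rc3h1, Cd44, Cd8a and the 3 nearest patterns. Casp8, Apaf1, Diablo, Tnf, Fcmr, Xiap, Birc3, Tnfaip3, Ncr1, Klrb1c, Klre1, Itgax and Cd3d were added after their values were seen. So were Fcer1g, Fcgr1, Ms4a1, Ebf1, Cd22, Blk, Pax5, Cd4, Zbtb7b and Tnfrsf21. Promoters came from RefSeq. The alternatives were other scaling, dim-gene filters, probe sets, an offset, variance models, array weights, replicate blocks and left-out arrays. Figures used matplotlib 3.10.9.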

Additional observations from a re-analysis of the deposited data

How the results depend on the processing

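The values for single genes with an array left out stand beside those genes above. Leaving out each array in turn gave 218 to 1315 called genes over the whole table, 0 or 1 of the 7 death receptor genes and 2 to 6 of the 56 other pathway genes. Array weights gave 4733 called genes and 26 of the pathway genes. Without sanroque replicate 1 and wild type replicate 2 together the counts were 353 over the table, 0 of the 7 and 1 of the 56. With 16 added to each intensity 0 of the 7 were called. Quantile normalization, median centring, both filters on dim genes, the mean over probe sets and both variance models left Fasl called and the 3 counts within 1.5 times. Fits with 1 group of 2 arrays have fewer samples. Without sanroque replicate 3 the count over the table was 1315, against 1151 with all arrays. Why the counts changed was not tested.

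The sample titles number the replicates without saying that the numbers pair the arrays. Same-numbered arrays deviated from their group means with correlations of -0.054, -0.16 and -0.36. Pairs with different numbers had correlations of -0.17 to 0.29. With 3 arrays per group, these values cannot settle whether same-numbered arrays were handled together. With the replicate number as a block, 301 genes were called, Fasl among them (limma, adjusted p = 0.0355), and 0 of the 56 pathway genes (Tnfrsf1b at 0.0550 and Zbp1 at 0.0529).

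Some uncalled folds changed sign. The log2 fold of Fadd was 0.012 with array weights and that of Rc3h1 -0.049 as a mean over probe sets. With 1 array left out, or sanroque replicate 1 and wild type replicate 2 together, the log2 fold ranged over -0.23 to 0.12 for Cflar, -0.42 to 0.017 for Tnfrsf10b and -0.29 to 0.033 for Ripk3. The positive ends came without both arrays, and Cflar was also 0.039 without sanroque replicate 1 alone. Mlkl had too low a mean for both dim-gene filters and Tnfsf14 for the stricter one.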
